A study of Caenorhabditis elegans with 2 samples.

Results

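The mitochondrial ribosomal protein genes of Caenorhabditis elegans were described as sites of occupancy by SNPC-1.3. All 70 protein-coding genes of the Ensembl WBcel235 annotation whose symbol begins with mrpl- or mrps- were taken, out of 19973 protein-coding genes on the nuclear chromosomes. They comprised 41 mrpl- genes, named for the large subunit, and 29 mrps- genes, named for the small subunit. The 78 cytosolic ribosomal protein genes, with symbols beginning with rpl- or rps-, served as the comparison. The data came from chromatin immunoprecipitation and sequencing (ChIP-seq) of whole young adult hermaphrodites of strain YL485. These worms carried SNPC-1.3, the product of F08F3.9, with a C-terminal GFP-FLAG tag, and an anti-GFP antibody was used on sonicated chromatin. There was 1 group of 2 biological replicates with 1 shared control. The tagged worms are whole animals, so a region cannot be assigned to a tissue, and no worms under another condition were compared.

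SNPC-1.3 belongs to the SNAPc family, whose complexes bind promoters of small nuclear RNA genes, and in the C. elegans male germ line it is known for a role in piRNA transcription. Mitochondrial ribosomes translate the few proteins encoded by mitochondrial DNA, which are core subunits of the respiratory chain. Their RNA is mitochondrial, but their proteins are encoded in the nucleus, translated in the cytosol and imported. Cytosolic ribosomal proteins build the ribosomes that translate all other mRNAs.

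The DNA beneath the highest peaks is shown first, because 1 of these peaks lay near genes of both ribosomal subunits. For mrps-7, mrps-18B and the pair mrps-24 and mrpl-1, the 4 members of highest signal, the 201 bases centred on the summit were read from the WBcel235 genome sequence. They are written 5′ to 3′ on the strand of the gene, with the 21 bases centred on the summit in capitals. None of these windows overlapped an annotated exon. The mrps-7 window was chrIV:14767813-14768013 on the minus strand, the mrps-18B window was chrII:8525427-8525627 on the plus strand, and the shared window was chrIV:7709781-7709981, written on the plus strand of mrps-24.
mrps-7: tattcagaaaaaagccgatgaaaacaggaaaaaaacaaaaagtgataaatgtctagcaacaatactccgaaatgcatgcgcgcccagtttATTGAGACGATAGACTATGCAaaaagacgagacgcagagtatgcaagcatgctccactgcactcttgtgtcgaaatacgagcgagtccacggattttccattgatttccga
mrps-18B: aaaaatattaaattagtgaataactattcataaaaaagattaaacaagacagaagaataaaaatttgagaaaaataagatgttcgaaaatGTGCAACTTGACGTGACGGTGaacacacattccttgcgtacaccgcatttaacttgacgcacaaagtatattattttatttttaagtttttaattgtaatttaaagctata
mrps-24/mrpl-1: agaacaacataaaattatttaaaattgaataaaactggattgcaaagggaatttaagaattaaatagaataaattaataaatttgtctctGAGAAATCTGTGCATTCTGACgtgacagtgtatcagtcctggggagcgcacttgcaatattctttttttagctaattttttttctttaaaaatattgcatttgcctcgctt
The GC content was 41.8% for mrps-7, 25.9% for mrps-18B and 28.9% for the shared window. Of the 5 promoter strings searched, only CTGCGTCT was found in any of these 3 windows, in that of mrps-7 on the opposite strand.

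A second set of windows is shown because 6 of the 14 distinct peaks at members held the string TTTGCGG within 100 bp of the summit. This string was picked after all strings of 7 bases had been counted in the same windows, so its count is a description. It was present in 42.9% of the member peaks, in 7.78% of the 887 IDR peaks at protein-coding genes and in 1 of 57 peaks at cytosolic ribosomal protein genes. In 5 of the 6 member windows it lay within GTGTTTGCGGAC, the string with the neighbouring bases that 4 of the printed windows share, found in 19 of the 887 peaks and in none of the 57. The longer string was read from these member windows, and outside them it was found in 14 of 873 peaks, or 1.6%. The windows of mrpl-28, mrps-16, mrpl-45, mrpl-32 and mrpl-55 are printed on the strand that reads TTTGCGG, which is in capitals, with 15 bases to each side. They are chrII:156124-156160 on the plus strand for mrpl-28, chrII:5474132-5474168 on the minus strand for mrps-16, chrIII:1202355-1202391 on the plus strand for mrpl-45, chrIII:8449398-8449434 on the minus strand for mrpl-32 and chrIV:443848-443884 on the minus strand for mrpl-55.
mrpl-28: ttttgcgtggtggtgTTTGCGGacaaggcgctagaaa
mrps-16: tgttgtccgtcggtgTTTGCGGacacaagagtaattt
mrpl-45: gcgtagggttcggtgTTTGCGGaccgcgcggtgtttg
mrpl-32: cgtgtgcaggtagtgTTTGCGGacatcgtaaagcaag
mrpl-55: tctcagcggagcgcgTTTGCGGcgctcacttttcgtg
In genome coordinates the centre of the string lay 1 bp from the summit at mrpl-45, 5 bp at mrpl-28, 12 bp at mrpl-55, 29 bp at mrps-16 and 48 bp at mrpl-32. The longer string was absent at mrpl-55 and present at mrps-15, whose window is not printed. TTTGCGG itself was held by 6 of the 70 member promoters, or 8.57%, and by 3.38% of all promoters. The 6 include mrps-15, mrpl-28, mrps-16 and mrpl-55, whose copies lie in the summit windows where the string was picked. The share of 8.57% is thus not separate from that choice. The longer string is rarer in promoters, searched between 250 bp before and 50 bp after the 5′ end. It was held by 49 of all 19973 promoters, or 0.245%, among them 3 of the 70 member promoters and none of the 78 cytosolic ones. The 3 are mrps-15, mrpl-28 and mrps-16, whose copies lie in the member summit windows already counted, so they are not a second source. Across the 6 nuclear chromosomes the longer string had 215 copies, of which 26, or 12.1%, lay inside an IDR peak and 74, or 34.4%, inside a pooled candidate. Of the 26, 5 were at members, in the same summit windows.

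The names were checked against the RefSeq product descriptions. For 64 of the 70 members the product named a mitochondrial ribosomal protein. The other 6 were mrpl-36, mrpl-13, mrpl-2, mrps-27, mrpl-48 and mrps-11. The RefSeq product of mrps-18C was uL3m, a large-subunit protein, so the prefix and the subunit differ for this gene, which had no IDR peak. Members were on chromosomes I to V and none was on X.

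Each deposited list gave regions with a summit and a signal in the unit of the authors' caller. A gene was counted as occupied when a summit lay within 500 bp of its annotated 5′ end. The IDR peaks were the 1676 regions retained after the irreproducible discovery rate, a method that compares ranks between replicates. They coincided with the top 1676 pooled regions by signal. Membership thus followed pooled signal, and an IDR peak could rank far apart in the replicates. The pooled list and each replicate list held 30000 regions, called loosely, so a candidate outside the IDR list is a ranked region and not a called peak. The number of reads behind each list is unknown. Intervals are 95% Clopper-Pearson intervals and cover counting error only. No test was run, and shares are read beside the share over all genes.

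An IDR peak was found at 15 of the 70 members, or 21.4% (95% interval 12.5% to 32.9%), where the share over all 19973 genes was 5.94%. Over autosomal genes alone the share was 6.77%. Cytosolic ribosomal protein genes had an IDR peak at 60 of 78, or 76.9% (66% to 85.7%), and their interval did not overlap that of the members. The size of this contrast depended on the window, since within 250 bp the counts were 19 of 78 cytosolic genes and 12 of 70 members. All genes were not counted with that window, so the share of 5.94% does not apply to it. Both mitochondrial subunits were represented, with 8 of 41 mrpl- genes, or 19.5% (8.82% to 34.9%), and 7 of 29 mrps- genes, or 24.1% (10.3% to 43.5%). The intervals of the subunits overlapped over most of their range.

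Counted by any pooled candidate, IDR peaks included, the members stood much nearer to the cytosolic genes. A pooled candidate lay within 500 bp of 65 of the 70 members, or 92.9% (84.1% to 97.6%), beside 76 of 78 cytosolic genes, or 97.4%, and 35.1% of all genes. Replicate 1 gave a candidate at 59 members, or 84.3%, where all genes gave 36.4%. Replicate 2 gave one at 64 members, or 91.4%, where all genes gave 36.3%. Among genes with a pooled candidate, 15 of 65 members, or 23.1% (13.5% to 35.2%), had an IDR peak, beside 78.9% of the cytosolic genes and a background of 16.9%. That background of 16.9% lay inside the members' interval, whereas the background of 35.1% lay outside their interval for a pooled candidate.

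The ranks of the candidates show where the remaining members lay. In the pooled list 30 members, or 42.9%, had their best candidate between rank 1677 and rank 5000, directly under the IDR peaks. In that band fell 11.5% of cytosolic genes, of which 76.9% already had an IDR peak, and 7.76% of all genes. Among genes without an IDR peak, the band held 30 of 55 members and 9 of 18 cytosolic genes. Over all genes it held 1550 of the 18786 without an IDR peak. The members were thus close to the cytosolic genes in this respect. A further 5 members lay between ranks 5001 and 10000, and 15 between ranks 10001 and 30000. The median rank was 3868 over the 65 members with a candidate, 672.5 over 76 cytosolic genes and 7896 over 7011 genes of any kind.

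**Figure D1:**
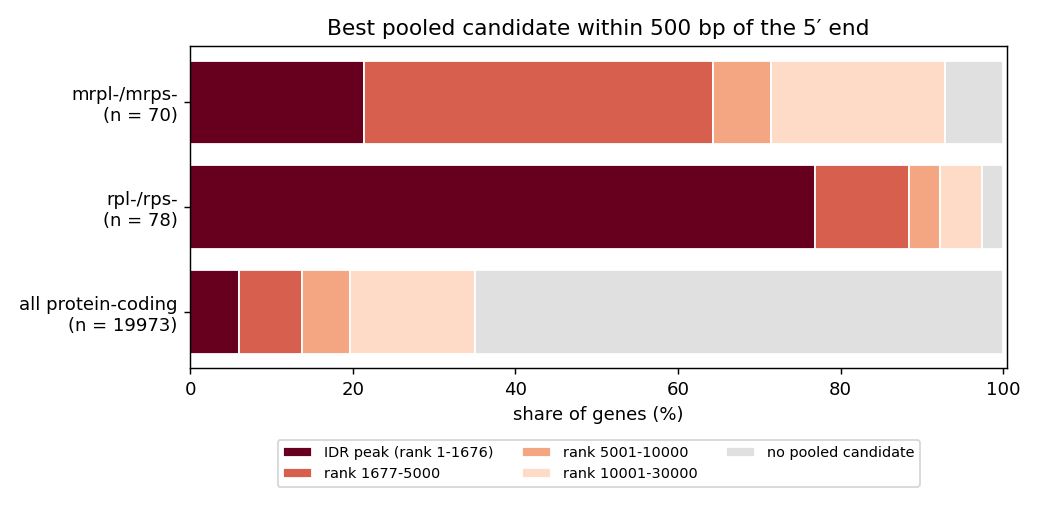
Share of genes (percent, horizontal axis) by the rank of the best pooled candidate within 500 bp of the 5′ end, for 70 mitochondrial ribosomal protein genes, 78 cytosolic ribosomal protein genes and all 19973 protein-coding genes. The band from rank 1677 to rank 5000 held 42.9% of the mitochondrial genes, and the band of IDR peaks held 76.9% of the cytosolic genes.

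Among genes of the small subunit, mrps-7 had the highest signal. It encodes uS7m, a protein of the head of the small subunit. Its peak had a pooled signal of 113 at rank 156, with the summit 183 bp upstream of the 5′ end. The signal was 25.8 at rank 525 in replicate 1 and 87.4 at rank 107 in replicate 2. The gene was therefore among the highest regions of both replicates, and higher in replicate 2 by rank.

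The next, mrps-18B, encodes a protein of the bS18m family. It had a pooled signal of 79.2 at rank 415, with 24 at rank 633 in replicate 1 and 54.5 at rank 413 in replicate 2, and its summit lay 154 bp upstream. The small-subunit gene mrps-24, which encodes uS3m, and the large-subunit gene mrpl-1, which encodes the L1 stalk protein uL1m, lie head to head and shared 1 peak. Its pooled signal was 75.8 at rank 463, with 25.1 at rank 567 in replicate 1 and 47.1 at rank 612 in replicate 2. The summit lay 164 bp upstream of mrps-24 and 180 bp upstream of mrpl-1, between the genes, and the replicates ranked it almost alike.

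The fifth gene, mrps-17, encodes uS17m and had a pooled signal of 74 at rank 494, with 29.3 at rank 376 in replicate 1 and 45.6 at rank 649 in replicate 2. Here replicate 1 ranked the region higher. The remaining small-subunit genes with an IDR peak were mrps-16 for bS16m, mrps-35 for mS35 and mrps-15 for uS15m, with pooled signals of 47.9, 46.5 and 40. Of these, mrps-16 ranked far higher in replicate 2, at 1070, than in replicate 1, at 4890. The peak of mrps-15 ranked 1662 of 1676 in the IDR list and stood just inside its limit.

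Among genes of the large subunit below the shared mrpl-1 peak, mrpl-45 had the highest signal. It encodes mL45, which in mammals lies at the exit of the peptide tunnel. Its pooled signal was 67 at rank 609, with 22.1 at rank 772 in replicate 1 and 42.3 at rank 759 in replicate 2. The replicates agreed closely in rank, and the summit lay 366 bp upstream.

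The gene mrpl-32 encodes bL32m, which in yeast is matured by the mitochondrial m-AAA protease. It had a pooled signal of 58.8 at rank 805, with 18.5 at rank 1153 in replicate 1 and 52.8 at rank 451 in replicate 2, and its summit lay farthest from the 5′ end, 389 bp upstream. The gene mrpl-50 encodes mL50 and had a pooled signal of 58.5 at rank 818, with 27.4 at rank 452 in replicate 1 and 28.5 at rank 1645 in replicate 2. These neighbours in pooled rank were thus ordered oppositely by the replicates. The summit at mrpl-50 lay 48 bp upstream, inside an exon of cct-2, which encodes a subunit of the cytosolic chaperonin and ends 26 bp before mrpl-50 on the same strand.

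Further large-subunit genes with an IDR peak were mrpl-17, mrpl-36, mrpl-55 and mrpl-28, which encode bL17m, a protein described only as ribosomal, L55 and bL28m. Their pooled signals were 58.4, 50.2, 49.5 and 43.9. The mrpl-17 region ranked 262 in replicate 1, the highest rank of any member in that replicate, and 1922 in replicate 2. The 14 distinct peaks at the 15 members were each 276 bp wide, the common width of these lists.

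**Figure D2:**
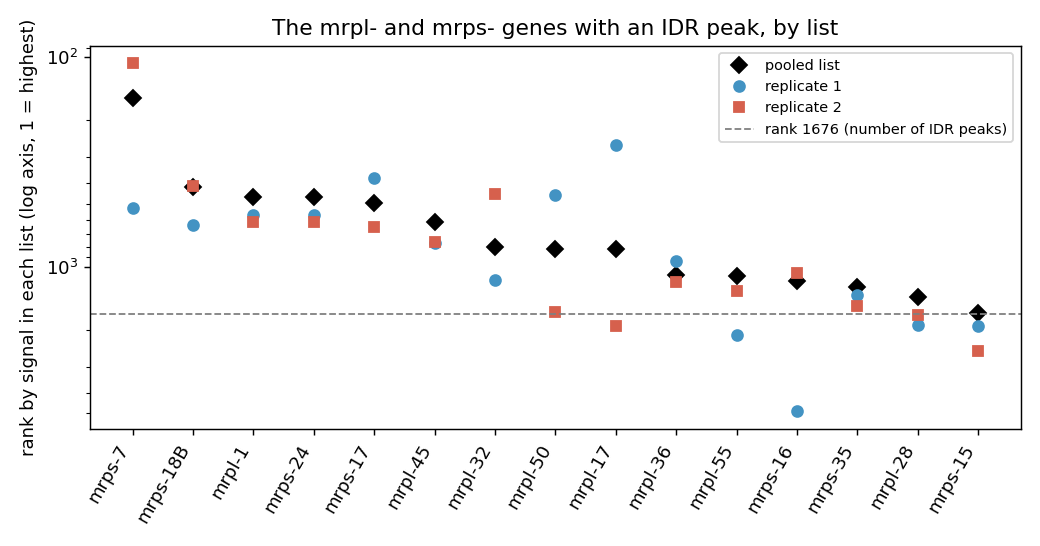
Rank by signal (vertical axis, logarithmic, 1 is highest) of the best region at each of the 15 mitochondrial ribosomal protein genes with an IDR peak, in the pooled list and in each replicate, with a dashed line at rank 1676. The replicates are close at mrpl-1, mrps-24 and mrpl-45 and far apart at mrpl-17, where the ranks were 262 and 1922, and at mrps-16, where they were 4890 and 1070.

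Members just outside the IDR list were mrpl-47, which encodes uL29m, and mrpl-16, which encodes uL16m. The best candidate of mrpl-47 had a pooled signal of 38.8 at rank 1750, with 8.01 at rank 8727 in replicate 1 and 30.9 at rank 1409 in replicate 2. The best candidate of mrpl-16 had a pooled signal of 38.2 at rank 1787, with 21.8 at rank 797 in replicate 1 and 13.5 at rank 8418 in replicate 2. Each was thus among the highest 1676 regions of 1 replicate and far lower in the other. The limit between the called and the nearest uncalled members fell between signals of 40 at mrps-15 and 38.8 at mrpl-47.

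A further 12 members had their best pooled candidate within 1000 ranks of the last IDR peak. From the highest down these were mrpl-39, mrpl-9, mrps-6, mrpl-35, mrpl-40, mrpl-42, mrpl-4, mrpl-49, mrps-34, mrps-12, mrpl-37 and mrpl-13, with pooled signals from 36.5 at mrpl-39 to 30.4 at mrpl-13. The candidate of mrpl-49 is of interest beside the comparison genes, since it lay between mrpl-49 and the cytosolic gene rpl-28, which are head to head with 5′ ends 519 bp apart. It ranked 2408 in the pooled list, 759 in replicate 1 and 7255 in replicate 2, and neither gene had an IDR peak.

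For mrps-5, the member best known in C. elegans because its knockdown extends lifespan, no IDR peak was found. Its best candidate had a pooled signal of 22.8 at rank 4634, with 13.1 at rank 2465 in replicate 1 and 11.6 at rank 11735 in replicate 2, and lay 133 bp downstream of the 5′ end. In each of these lists it lay lower than rank 1676. At mrps-11 and mrpl-10 no region of any list was found within 500 bp. The genes mrpl-23 and mrpl-48 had a candidate in replicate 1 only and mrps-22 in replicate 2 only, at ranks 19515, 14037 and 28426 of that list.

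All 15 summits of IDR peaks lay upstream of the 5′ end of the member, from 389 bp to 48 bp before it, with a median of 157 bp upstream and an interquartile range from 186 to 129.5 bp upstream. Of all genes with an IDR peak, 90.5% had the summit upstream, at a median of 192 bp. The 60 cytosolic genes had it farther out, at a median of 277 bp upstream, and 58 of the 60 were upstream. The median signal was 58.5 at the members, from 39.95 to 113.3, beside 57.8 over all genes with an IDR peak and 75.1 at the cytosolic genes, where it ran up to 410.5 at rpl-15. After rpl-15, which encodes a large-subunit protein, the highest cytosolic genes were rpl-20 at 375 and rpl-3 at 341, each above the highest member.

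Pooled candidates were less regular. Of the 65 best pooled candidates at members, 52, or 80%, lay upstream, with a median of 131 bp upstream, while 66.8% of those at all genes did. Downstream candidates at members were all outside the IDR list, the highest being that of mrpl-47, 22 bp downstream.

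**Figure D3:**
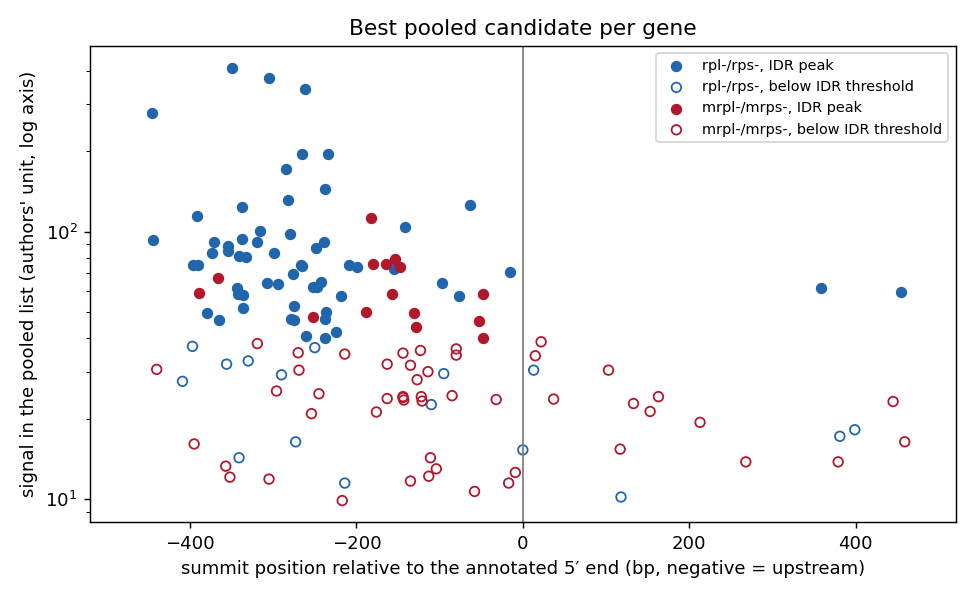
Signal of the best pooled candidate (vertical axis, logarithmic, in the unit of the authors' caller) against the position of its summit from the annotated 5′ end (horizontal axis, bp, negative is upstream), for mitochondrial and cytosolic ribosomal protein genes, with IDR peaks filled. The filled mitochondrial points lie from 389 to 48 bp upstream, and the filled cytosolic points reach higher signals around a median of 277 bp upstream.

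Some peaks near a member were near another gene as well. Over all genes, 1187 had an IDR peak and these were 887 distinct peaks, so sharing was not particular to members. The share of genes with a summit near another gene was counted for members only. At 9 of the 15 members with an IDR peak, the summit also lay within 500 bp of the 5′ end of another protein-coding gene. The partners were Y57G11C.3 at mrps-7, the splicing factor gene prp-9 at mrps-18B, txdc-9 at mrps-17, Y119D3B.12 at mrpl-45, vbh-1 at mrpl-17, sws-1 at mrps-35 and asg-1 at mrps-15. At the shared peak of mrps-24 and mrpl-1 the third gene was emc-6, which encodes a subunit of the endoplasmic reticulum membrane complex. The summit was nearer to the other gene at mrps-18B, where it lay 131 bp upstream of prp-9 and 154 bp upstream of the member, and at mrpl-45, where it lay 172 bp upstream of Y119D3B.12. It was also nearer to emc-6, at 145 bp, than to mrps-24 or mrpl-1. When each peak was assigned to its nearest 5′ end alone, 11 of the 70 members had an IDR peak and 38 of the 78 cytosolic genes did. None of the 15 summits lay within 250 bp of a short RNA gene of any kind, from tRNA, snRNA and snoRNA genes to piRNA genes and other short non-coding RNA genes. When regions at short RNA genes were left out, 15 members and 40 of the 78 cytosolic genes had an IDR peak. For 13 of the 15 the summit lay between genes, and for mrpl-50 and mrps-35 it lay in an exon. The counts by nearest 5′ end, by short RNA genes and by place of the summit were not made over all genes.

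Members were also sorted by the layout of the upstream neighbour. A gene was called head to head when the neighbour on the opposite strand had its 5′ end within 1000 bp, and same strand when the preceding gene on its own strand ended within 500 bp, as in the operons of C. elegans. An IDR peak was found at 9 of 27 head-to-head members, or 33.3% (16.5% to 54%). It was found at 2 of 28 same-strand members, or 7.14% (0.877% to 23.5%), and at 4 of 15 members of neither layout, or 26.7% (7.79% to 55.1%). The corresponding shares over all genes were 18%, 5.86% and 2.4%. The 3 layouts made up 38.6%, 40% and 21.4% of members and 18.3%, 19.8% and 61.9% of all genes. The share of 5.94% over all genes was therefore not matched to the members in layout. The members' intervals held the share of all genes for the head-to-head and same-strand layouts, and lay above it for members of neither layout. Cytosolic genes had 76.6%, 62.5% and 82.6%, so their share was high in every layout, with 8 same-strand genes. Same-strand members still had pooled candidates, at 24 of 28, or 85.7% (67.3% to 96%), where 49.6% of all same-strand genes had one.

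**Figure D4:**
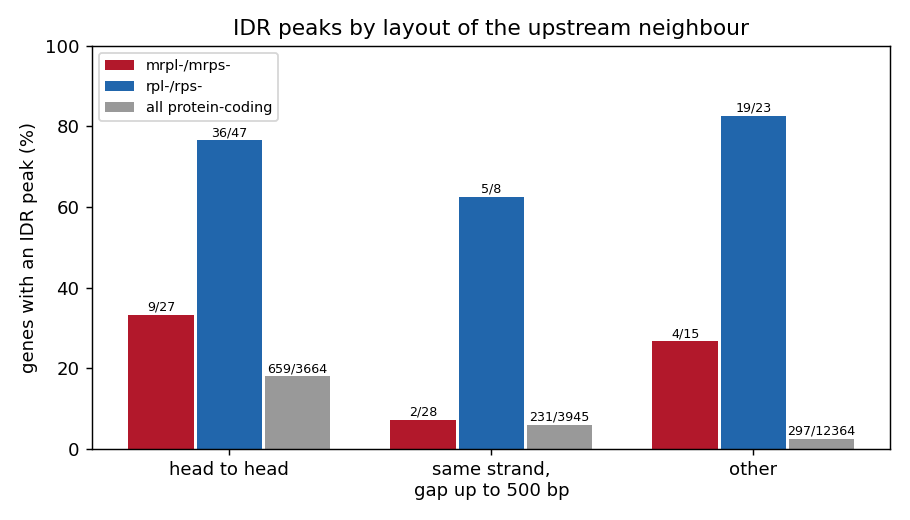
Share of genes with an IDR peak (percent, vertical axis) by the layout of the upstream neighbour, with counts above the bars, for mitochondrial ribosomal protein genes, cytosolic ribosomal protein genes and all protein-coding genes. The same-strand bar of the mitochondrial genes stands at 2 of 28, beside 9 of 27 for head-to-head genes.

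The replicates gave the same number of members, with an overlap like that over all genes. When the top 1676 regions by signal were taken from each replicate alone, 16 of 70 members had one in replicate 1 and 16 in replicate 2, or 22.9% ± 0 (SD, n = 2). The shares over all genes were 5.1% in replicate 1 and 5.79% in replicate 2, and cytosolic genes had 70.5% ± 3.63 (SD, n = 2). In both replicates it was the case for 10 members, or 14.3%, and in either for 22, or 31.4%, where all genes gave 3.38% and 7.5%. The members in both were 45.5% of those in either, beside 45.1% over all genes and 69.2% over cytosolic genes. All 10 had an IDR peak, and that list matched the highest pooled regions, whose signal draws on both replicates. The 10 were mrps-7, mrps-18B, mrps-24, mrps-17, mrps-35, mrpl-1, mrpl-45, mrpl-32, mrpl-50 and mrpl-36. Of the other 5 with an IDR peak, mrpl-17 was so ranked in replicate 1 only, mrps-16 and mrpl-55 in replicate 2 only, and mrpl-28 and mrps-15 in neither. Without an IDR peak but among the highest regions of 1 replicate were mrpl-16, mrpl-49, mrpl-9, mrps-12 and mrps-28 in replicate 1, and mrpl-35, mrpl-47, mrps-34 and mrps-6 in replicate 2.

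Over the 55 members with a candidate in both replicates, Spearman's rank correlation of the replicate ranks was 0.351. It was 0.681 over 69 cytosolic genes and 0.586 over 4532 genes of any kind. These are descriptions across genes that share 2 libraries and 1 control, and the best candidate of a gene may be a different region in each replicate. The replicate summits were within 50 bp of each other at 22 of the 55 members, or 40%, at 73.9% of cytosolic genes and at 37.2% of all genes. Of the 15 members with an IDR peak, 10 had summits within 50 bp, and of the 40 without, 12 did. The IDR list matched the highest pooled regions, whose signal draws on both replicates, so these 2 counts are not independent of that selection.

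**Figure D5:**
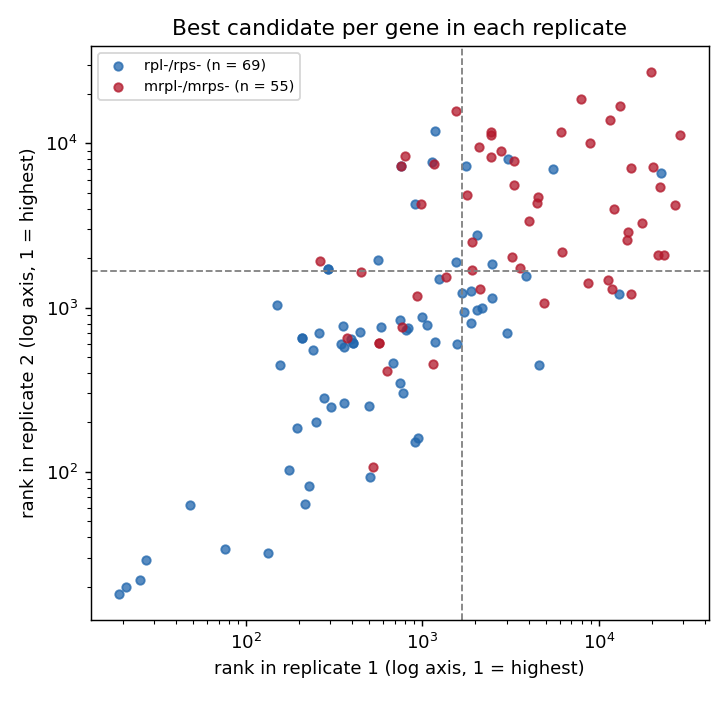
Rank of the best candidate within 500 bp in replicate 1 (horizontal axis, logarithmic) and replicate 2 (vertical axis, logarithmic), for 55 mitochondrial and 69 cytosolic ribosomal protein genes with a candidate in both, with dashed lines at rank 1676. The lower left field, within rank 1676 in both, holds 10 mitochondrial genes, and the remaining ones spread widely, with a rank correlation of 0.351 beside 0.681 for the cytosolic genes.

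Chosen strings were searched on both strands of the promoters, from 250 bp before to 50 bp after the 5′ end. The letters GTTCNANNC, the B box of RNA polymerase III genes, were found at 4 of 70 members, or 5.71%, and in 8.74% of all promoters. CTGTTTCA, a string of the piRNA upstream motif, was found at 2 members, or 2.86%, beside 2.32%. CTGCGTCT was found at 3 members, or 4.29%, beside 3.54%. The TATA-like TATAAA was found at 34.3% of members and 37.9% of all promoters, and GAGAGA at 21.4% and 21.8%. The differences between members and all promoters were not tested, and no direction is read from them. At most 4 member promoters lie behind each of the shares for GTTCNANNC, CTGTTTCA and CTGCGTCT. Under the 14 member peaks, within 100 bp of the summit, the counts were 0, 1, 2, 2 and 3 for the 5 strings in the same order. Over the 887 peaks at all genes the shares were 9.58%, 0.902%, 7.78%, 19.1% and 19.6%, which were not tested against counts of 3 or fewer.

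The letters TTTCAG, which match the splice acceptor used for trans-splicing of leader RNA in C. elegans, were searched on the gene strand from 20 bp before to 5 bp after the 5′ end. They were found at 30 of 70 members, or 42.9%, at 51.3% of cytosolic genes and at 17.6% of all genes. An annotated 5′ end with this string may be a trans-splice site rather than a transcription start, so distances are measured from the annotated end only. The median GC content within 100 bp of the summit was 35.3% at the 14 member peaks, 42.3% at 57 cytosolic peaks and 37.8% at 887 peaks at all genes.

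Other nuclear genes for mitochondrial functions were counted the same way, to be read beside the 5.94% of all genes. Of 15 annotated genes for mitochondrial translation factors and tRNA synthetases, 2 had an IDR peak, or 13.3% (1.66% to 40.5%), namely ears-2, for a glutamyl-tRNA synthetase, at a signal of 89.2, and the elongation factor gene gfm-1 at 48.2. Of 6 genes for mitochondrial DNA upkeep and transcription there was 1, or 16.7% (0.421% to 64.1%), mtss-1, for the single-stranded DNA binding protein, at 92. Protein import and chaperone genes had 5 of 22, or 22.7% (7.82% to 45.4%), led by tin-9.2 at 81.9, the prohibitin gene phb-2 at 67.8 and the chaperone gene hsp-6 at 61.5. The respiratory chain and ATP synthase had 9 of 29, or 31% (15.3% to 50.8%), led by the ATP synthase genes atp-1, at rank 209, and atp-5 and atp-2, at signals of 72.5 and 66.1. Among these 9, asg-1 was the gene that shared its peak with mrps-15. None of 6 genes for the mitochondrial stress response had an IDR peak, which allows for up to 45.9% by the upper bound of the interval. The share of all genes lay below the intervals of the import and respiratory lists and inside those of the other 3, and the intervals of all 5 overlapped that of the ribosomal members. The import count includes phb-1, whose summit lay 500 bp upstream, on the edge of the window. Its region ranked 10130 in replicate 1 and 985 in replicate 2, so the import interval depends on the window chosen.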

How the data were processed

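Per the notes the authors deposited beside the files, candidate regions came from each replicate, and from both pooled, against 1 control, and the IDR list was derived from them. The signal of each region and its summit offset were used as the authors deposited them, in the unit of their caller, only to rank and describe regions within a list. Caller, IDR threshold, aligner and depth: not given in the sources used here. Deposited ce11 regions were joined to Ensembl release 115 (WBcel235), and sequences were read from the RefSeq assembly of the same build. Regions were converted to 1-based positions, and per gene and list the region of highest signal with a summit within 500 bp was taken. The members and lists were chosen with earlier results of these data known. Named were all members with an IDR peak, those within 1000 ranks below it, those with no candidate in any list, mrps-5 and the 3 highest genes of each list. The genes mrpl-23, mrpl-48, mrps-22, mrpl-2, mrps-27, mrps-28 and mrps-18C were named after their values were seen. Of 23 symbols listed for translation factors and synthetases, 8 were not found in the annotation. Alternatives were other windows, any transcript start, the nearest 5′ end only, any overlap, the upper part of the IDR list, each replicate alone and no regions at short RNA genes; the ce10 lists were not used here. The assignment of regions to genes was tested on simulated regions. Python 3.11.15, pandas 2.3.3 and scipy 1.17.1 were used.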

Additional observations from a re-analysis of the deposited data

How the results depend on the processing

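Of 44 alternative values, 40 stayed within 1.5 times the count or inside the 95% order-statistic interval of the median. The number of members with an IDR peak was 9 when only the 838 IDR peaks of highest signal were used, in place of 15. The cytosolic count of 60 was 19 with a window of 250 bp and 38 when each summit counted only at its nearest 5′ end, and the cytosolic median distance was -225 bp with the narrower window, which leaves out summits farther away by construction. At members the narrower window gave 12, and all genes were not counted with that window. With 1 replicate left out, members had 16 in either case and cytosolic genes 53 to 57. No paired analysis was possible because there was 1 group. Read depth is unknown, so the absence of a region at a member cannot be set against the depth of the library.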
